A study of Mus musculus with 8 samples.

Results

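The genes of mouse mitochondrial DNA were examined in RNA-seq data from livers of HFD WT and HFD Inpp4b-/- males. The genes were chosen by name, as every gene of the deposited count table whose GRCm38 symbol starts with mt-. Of the 37 such genes in the annotation, 16 of the 18095 genes of the table were found: all 13 protein genes, both rRNA genes and 1 of 22 tRNA genes, mt-Tp. The other 21 tRNA genes were not analysed here.

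The study asked how loss of INPP4B, a phosphatase that acts on inositol lipids, alters the liver of mice on a high-fat diet. Livers came from 4 HFD WT and 4 HFD Inpp4b-/- males aged 12 weeks, and RNA of each mouse gave 1 library. All 8 mice were on the high-fat diet (HFD), which their dams received from before mating and which they kept after weaning. The labels give C57BL/6 as the strain background. The paper gives FVB, and the allele that Inpp4b-/- mice carry is not given in the sources used here. The labels state that rRNA was removed with the Ribo-Zero kit before the libraries were made, whereas the paper names only the library kit.

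Mitochondrial DNA is a small circular genome present in many copies per cell. Both strands are transcribed as long RNAs that span most of the circle, and enzymes release the rRNAs, tRNAs and mRNAs from them, largely by cutting at the tRNAs. Its protein genes encode core subunits of complexes I, III, IV and V of oxidative phosphorylation, the rRNAs and tRNAs serve their translation, and all other mitochondrial proteins are encoded in the nucleus. Hepatocytes are rich in mitochondria, so these transcripts are abundant in liver RNA. Because the genes share transcripts, they are not independent of each other.

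Total counts ranged from 25893430 to 31427831 per library in HFD WT and from 32738435 to 36662531 in HFD Inpp4b-/-. Inpp4b itself was counted 5 to 20 times in HFD WT libraries and 9 to 33 times in those labelled HFD Inpp4b-/-, so it was not lower in the latter, and each direction given here rests on the labels. All 6 hepatocyte markers examined had counts, with a summed level of 74902 to 79896 CPM (counts per 1e+06 of the normalized library total) in HFD WT and 78019 to 96258 CPM in libraries labelled HFD Inpp4b-/-. The groups overlapped in this sum and in those of leukocyte, endothelial, stellate, cholangiocyte, erythroid and pancreas markers, none of which was called, and adipocyte and skeletal muscle markers had no gene in the table. In bulk RNA, a different number of cells of a type and a different amount of RNA per cell cannot be told apart.

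The sequences below show the short genes whose counts need care and the nuclear copies that share sequence with mitochondrial genes. They were taken from the GENCODE M21 transcripts of GRCm38 and are written 5′ to 3′. mt-Tp, the tRNA for proline, lies at chrM:15356-15422 on the minus strand and has 67 bases. mt-Atp8, a small subunit of ATP synthase, lies at chrM:7766-7969 on the plus strand, and the capitals mark the 43 bases that it shares with mt-Atp6, the next gene. A read within these bases lies in both genes, and how the counting treated such reads is not given in the paper.
mt-Tp: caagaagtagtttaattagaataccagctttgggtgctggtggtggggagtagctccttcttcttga
mt-Atp8: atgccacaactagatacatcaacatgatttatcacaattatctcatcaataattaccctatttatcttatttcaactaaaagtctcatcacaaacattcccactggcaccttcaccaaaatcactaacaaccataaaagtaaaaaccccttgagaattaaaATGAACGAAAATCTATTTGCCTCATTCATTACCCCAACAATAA

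Part of mitochondrial DNA has a near-identical copy in the nuclear genome, in 7 annotated pseudogenes at chr1:24611535-24616197, all on the minus strand. These 7 hold the whole or nearly the whole of mt-Co2, mt-Atp6, mt-Co3, mt-Nd4l and mt-Nd3, the last 483 of the 1545 bases of mt-Co1 and the first 876 of the 1378 bases of mt-Nd4. Bases 301 to 400 of mt-Co3 (chrM:8907-9006, plus strand) are the same as those of its copy Gm28437 (chr1:24613572-24613671). Bases 1 to 100 of mt-Nd3 (chrM:9459-9558, plus strand) and of its copy Gm28438 (chr1:24613020-24613119) differ at 1 base, in capitals.
mt-Co3: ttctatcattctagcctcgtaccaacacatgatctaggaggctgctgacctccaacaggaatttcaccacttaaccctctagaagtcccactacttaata
Gm28437: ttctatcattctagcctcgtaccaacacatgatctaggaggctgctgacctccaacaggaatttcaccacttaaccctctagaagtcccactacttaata
mt-Nd3: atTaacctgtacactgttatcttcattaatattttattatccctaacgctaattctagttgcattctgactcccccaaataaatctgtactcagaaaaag
Gm28438: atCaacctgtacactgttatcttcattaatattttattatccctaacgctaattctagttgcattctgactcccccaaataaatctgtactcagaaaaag

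By contrast, mt-Cytb has its nearest annotated nuclear copy in Gm11410, with 92.9% identity over 1142 bases. Bases 301 to 400 of mt-Cytb (chrM:14445-14544, plus strand) and of Gm11410 (chr4:80004289-80004388, plus strand) differ at 10 bases, in capitals. No row of Gm11410 was analysed here.
mt-Cytb: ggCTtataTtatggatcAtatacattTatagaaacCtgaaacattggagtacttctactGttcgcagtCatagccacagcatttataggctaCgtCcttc
Gm11410: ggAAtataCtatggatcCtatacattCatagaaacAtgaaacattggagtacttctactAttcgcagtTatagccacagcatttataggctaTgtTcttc

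Apart from mt-Atp8, protein genes with a copy over nearly their whole length had lower levels per length than those without a near-identical copy. Averaged over all 8 libraries, the 5 protein genes with no copy of at least 99% identity, mt-Atp8 apart, had 2208 CPM per kilobase (mt-Nd5) to 9162 CPM per kilobase (mt-Cytb). The 5 genes with such a copy over all but 1 to 3 of their bases had 14.2 CPM per kilobase (mt-Nd3) to 119 CPM per kilobase (mt-Co2). The lowest gene of the former set was thus 18.5-fold above the highest gene of the latter.

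mt-Co1 had the highest level per length, with 14229 ± 2722 CPM per kilobase (SD, n = 8 libraries), although 31.3% of it is copied. mt-Nd4, copied over 63.6%, had 4139 ± 785 CPM per kilobase. If all their counts fell on the bases without a copy, the levels would be 20700 CPM per kilobase of such sequence for mt-Co1 and 11362 CPM per kilobase for mt-Nd4. How the counting treated reads that align equally well to several places was not given in the sources used here, and its part in these levels was not tested.

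mt-Atp8 had the lowest level per length, 5.35 ± 2.19 CPM per kilobase (SD, n = 8 libraries), although no annotated gene copies it. It lies between mt-Co2 and mt-Atp6, whose starts are 914 bases apart in mitochondrial DNA. The starts of their copies on chromosome 1, Gm28661 and Gm10925, are 914 bases apart too, so the stretch between them, which no annotated gene covers, has the length that holds mt-Atp8. Whether that stretch matches mt-Atp8 was not tested, since no genome sequence was used here. mt-Atp8 also shares 43 of its 204 bases with mt-Atp6. The part that this overlap or any copy had in its level was not tested.

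**Figure D1:**
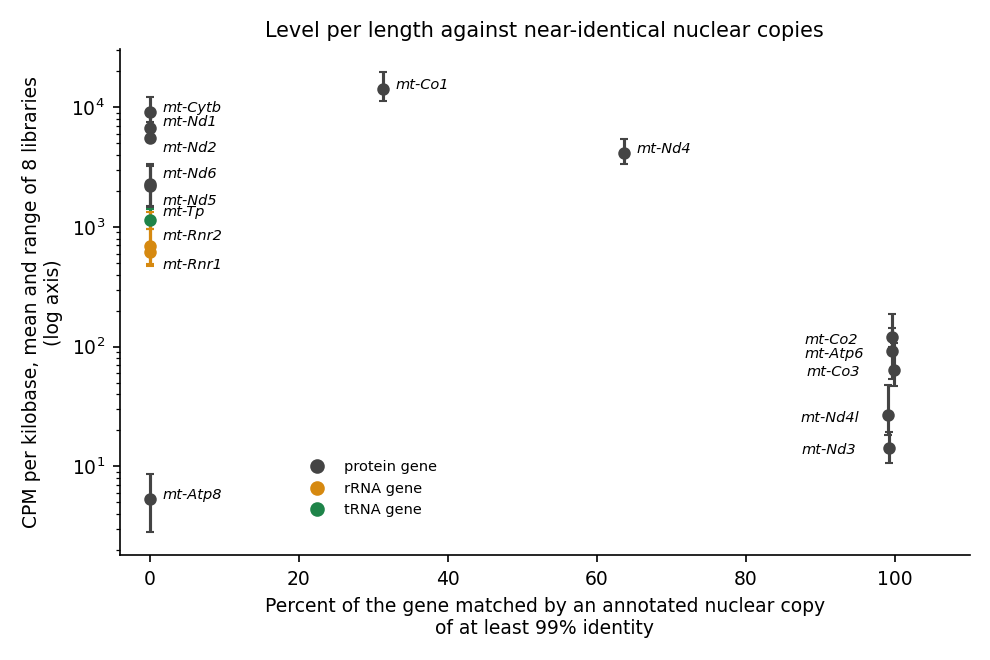
Level per length (CPM per kilobase of the annotated gene, log axis, mean of 8 libraries with their range) against the percent of each gene matched by an annotated nuclear copy of at least 99% identity. The 5 genes at the right, matched over all but 1 to 3 of their bases, lie at 119 CPM per kilobase or less, and every unmatched gene but mt-Atp8 lies at 613 CPM per kilobase or more.

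The nuclear copies had counts of their own. For mt-Co2, mt-Atp6, mt-Co3 and mt-Nd4l, the copy had 52.8%, 79.3%, 88.5% and 99.2% of the counts of the mitochondrial gene over all libraries, and Gm28438 had 515% of those of mt-Nd3. The copies of parts of mt-Nd4 and mt-Co1 had 0.405% and 0.166%. Reads of these genes and their copies cannot be assigned with certainty, so the values of mt-Co2, mt-Atp6, mt-Co3, mt-Nd4l and mt-Nd3 are uncertain. Counts of the copies were 976 to 2327 for Gm28437, 1022 to 2211 for Gm10925 and 412 to 1674 for Gm28438, and none of the 7 copies was called between genotypes.

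Together, the 16 genes took a larger share of the libraries labelled HFD Inpp4b-/- than of the HFD WT libraries. The share was 4.75%, 5.64%, 4.87% and 5.10% of all counts in HFD WT replicates 1 to 4, a mean of 5.09% ± 0.394 (SD, n = 4). It was 5.96%, 5.84%, 6.33% and 7.42% in replicates 1 to 4 labelled HFD Inpp4b-/-, a mean of 6.39% ± 0.719 (SD, n = 4). All 4 latter libraries were above all 4 former ones, with 5.64% as the highest HFD WT library and 5.84% as the lowest of the other group, and the means differed by a fold of 1.25. Counting error was small beside this spread, since the 95% Wilson interval of a share reached at most 0.00848 percentage points to either side. The separation depended on the denominator. As a share of the normalized library totals, the means still differed by 1.32 percentage points. On that scale HFD WT replicate 2 lay slightly above HFD Inpp4b-/- replicate 2, so the groups overlapped.

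The 13 protein genes made up nearly all of the share. They took 4.59%, 5.51%, 4.73% and 4.79% of the HFD WT libraries and 5.78%, 5.62%, 6.18% and 7.29% of the libraries labelled HFD Inpp4b-/-, again without overlap. As a share of the normalized library totals, they too were higher in HFD WT replicate 2 than in HFD Inpp4b-/- replicate 2, and the groups overlapped. Among the complexes, protein genes of complex IV did not overlap between genotypes (1.79% to 2.22% in HFD WT, 2.33% to 2.96% in libraries labelled HFD Inpp4b-/-). Nor did mt-Cytb of complex III (mean 0.906% ± 0.0789 and 1.18% ± 0.137, SD, n = 4 each). Protein genes of complex I (1.98% to 2.27% and 2.21% to 2.97%) and complex V (0.00361% to 0.00616% and 0.00487% to 0.0137%) overlapped. On normalized library totals mt-Cytb overlapped too, with 10025 CPM in HFD WT replicate 2 and 9974 CPM in HFD Inpp4b-/- replicate 2.

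The rRNA genes took a small share, in which the genotypes overlapped. They took 0.148%, 0.124%, 0.132% and 0.304% of the HFD WT libraries and 0.170%, 0.211%, 0.136% and 0.121% of those labelled HFD Inpp4b-/-. HFD WT replicate 4 was the highest of all. mt-Tp took 0.00642% to 0.00680% in HFD WT and 0.00761% to 0.00921% in libraries labelled HFD Inpp4b-/-, without overlap. No test was made of these sums over genes.

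**Figure D2:**
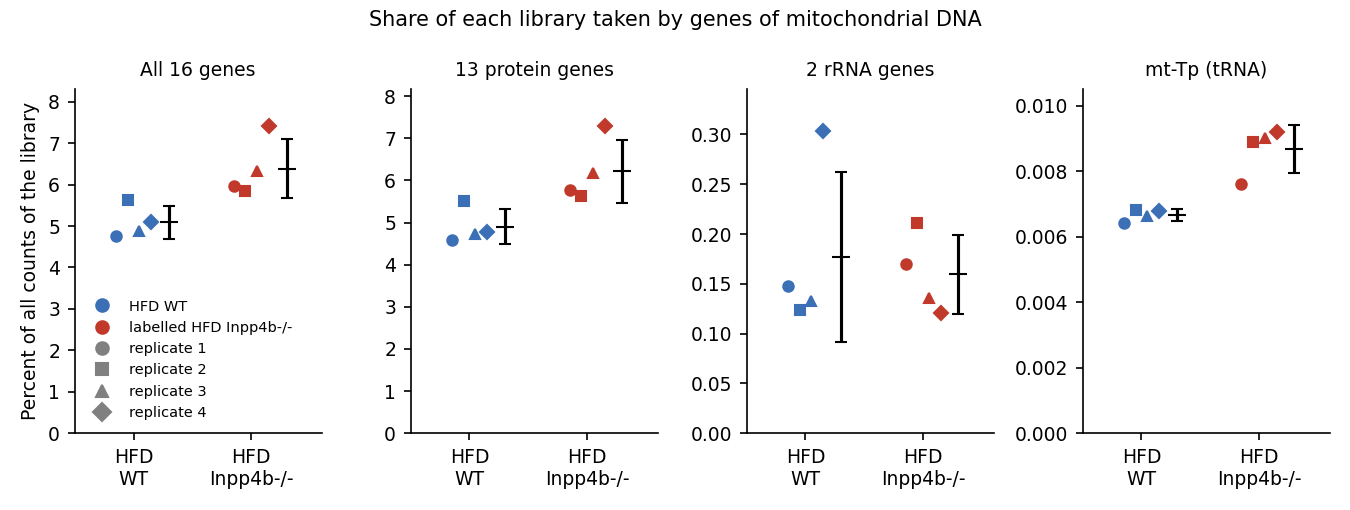
Percent of all counts of each library taken by all 16 genes, the 13 protein genes, both rRNA genes and mt-Tp, each axis starting at 0. Points are libraries, shaped by replicate number, and bars are the mean ± SD of 4. The groups are apart in all panels but that of the rRNA genes, where HFD WT replicate 4 stands at 0.304%. With normalized library totals as the denominator, the groups overlap for all 16 genes together and for the 13 protein genes.

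All 13 protein genes and mt-Tp had a fitted level above HFD WT in the libraries labelled HFD Inpp4b-/-, but no single gene passed the test for differential expression. With edgeR's quasi-likelihood test over 14866 genes, where a call needs a fold change over 1.3 and a p under 0.10 after Benjamini-Hochberg adjustment, 0 of the 16 genes were called, where 1.17% of all tested genes were. At an unadjusted p under 0.05, 8 of 16 passed and all 8 were higher in the libraries labelled HFD Inpp4b-/-, where 6.8% of all tested genes passed in that direction and 7.14% in the other. With DESeq2 on the same genes and thresholds, 5 of 16 were called, all higher (mt-Co1, mt-Atp6, mt-Nd5, mt-Nd6 and mt-Cytb), where 4.31% of all tested genes were called and 2.04% were called higher. mt-Tp and mt-Co2 had DESeq2 adjusted p-values of 0.0199 and 0.0515 but fitted fold changes under 1.3.

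All 16 passed the filter on low counts. The fitted log2 fold change was above 0 for 13 of 13 protein genes, with a median of 0.36, and for 50.4% of all tested genes, with a median of 0.0027. It was below 0 for both rRNA genes and above 0 for mt-Tp. Normalized levels did not overlap between genotypes in 4 of 16 genes, all higher in the libraries labelled HFD Inpp4b-/- (mt-Co1, mt-Co2, mt-Nd6 and mt-Tp), where 4.63% of all tested genes were of this kind and 4.09% were lower without overlap. The p-values measure the spread between these mice, which the labels number separately.

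**Figure D3:**
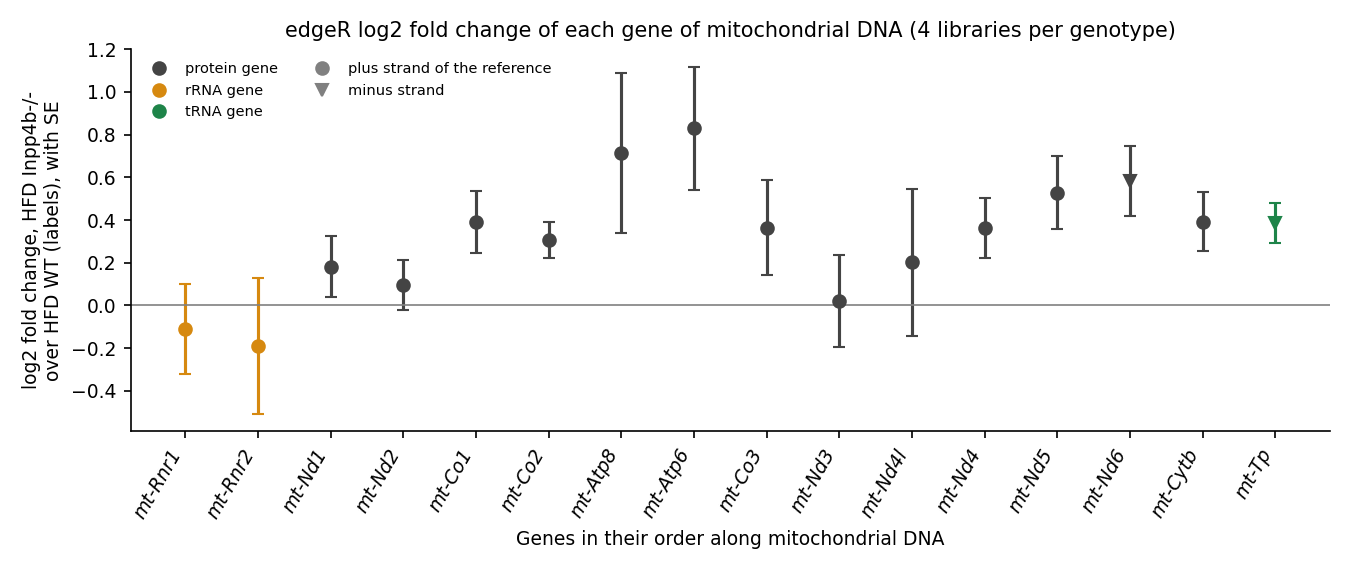
edgeR log2 fold change of each gene, libraries labelled HFD Inpp4b-/- over HFD WT, with its standard error, in the order of the genes along mitochondrial DNA. Protein genes range from 0.02 (mt-Nd3) to 0.83 (mt-Atp6), both rRNA genes lie below 0, and triangles mark mt-Nd6 and mt-Tp on the minus strand.

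Complex I, which takes electrons from NADH, has 7 subunits encoded in mitochondrial DNA. mt-Nd1 had 5838, 6261, 5518 and 6367 CPM in HFD WT replicates 1 to 4 and 6184, 5554, 7034 and 8436 CPM in the libraries labelled HFD Inpp4b-/- (replicates 1 to 4, an order kept below). The groups overlapped, replicate 2 of the latter being near the lowest HFD WT library, and the log2 fold change was 0.18 ± 0.14 (SE, n = 4 per genotype, edgeR adjusted p = 0.608). It was 0.062 without HFD Inpp4b-/- replicate 4, the highest library. For mt-Nd2 the levels were 5359.6, 5814, 5516 and 5605 CPM in HFD WT and 5633, 5274, 5785 and 7137 CPM in the other group. Replicate 4 labelled HFD Inpp4b-/- stood above the rest, which overlapped, with a log2 fold change of 0.10 ± 0.12 (SE, n = 4 per genotype, edgeR adjusted p = 0.762). Without this library the log2 fold change of mt-Nd2 was -0.0017.

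mt-Nd4 and mt-Nd5 are further membrane subunits, homologous to ion antiporters. mt-Nd4 measured 5038, 5460.1, 4884 and 4587 CPM in HFD WT and 5572, 5335, 7299.9 and 7454 CPM in libraries labelled HFD Inpp4b-/-. Replicates 3 and 4 of the latter were above all others, while replicate 2 lay within the HFD WT range, and the log2 fold change was 0.36 ± 0.14 (SE, n = 4 per genotype, edgeR adjusted p = 0.292). mt-Nd5 measured 3284, 3907, 3369 and 2635 CPM and 4236, 3720.3, 5149 and 5914 CPM, respectively. HFD WT replicate 4 was the lowest library and replicate 2 of that group overlapped with the other group. Its log2 fold change was 0.53 ± 0.17 (SE, n = 4 per genotype, edgeR adjusted p = 0.219).

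mt-Nd6, a further membrane subunit of complex I, is the single protein gene read from the opposite strand. Its levels were 989, 1012, 995 and 782 CPM in HFD WT and 1253, 1059.7, 1749 and 1603 CPM in libraries labelled HFD Inpp4b-/-. The groups did not overlap, with 1012 CPM as the highest HFD WT library and 1060 CPM as the lowest of the other group, and the log2 fold change was 0.58 ± 0.16 (SE, n = 4 per genotype, edgeR adjusted p = 0.173). mt-Nd6 shares 14 bases with mt-Nd5 (chrM:13552-13565) on the opposite strand. The strand setting of the counting is not given in the sources used here, and without it reads from mt-Nd6 and from the antisense RNA of the other strand cannot be told apart.

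Both other genes of complex I had few counts. mt-Nd3 had 6.08, 4.57, 4.55 and 4.42 CPM in HFD WT and 3.69, 6.78, 4.57 and 4.86 CPM in libraries labelled HFD Inpp4b-/-, from 115 to 258 counts per library. The groups overlapped fully, with a log2 fold change of 0.02 ± 0.22 (SE, n = 4 per genotype, edgeR adjusted p = 0.973), which turned negative without HFD Inpp4b-/- replicate 2 (-0.16). It was -0.02 to -0.01 when HFD WT replicate 2, 3 or 4 was left out. With the counts of its copy Gm28438 added, an alternative chosen after the data were seen, it was 0.58 (edgeR adjusted p = 0.392), so the value of mt-Nd3 depends on whether the counts of the copy are included. mt-Nd4l, which shares 7 bases with mt-Nd4, ranged from 5.38 to 12.3 CPM in HFD WT and from 6.35 to 14.1 CPM in libraries labelled HFD Inpp4b-/-. Each group held 1 high library (HFD WT replicate 2, HFD Inpp4b-/- replicate 1), and the log2 fold change was 0.20 ± 0.34 (SE, n = 4 per genotype, edgeR adjusted p = 0.836), or -0.16 without the latter. It was 0.37 with the counts of Gm10222 added.

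mt-Cytb encodes cytochrome b, the subunit of complex III that binds ubiquinol. It had 8613, 10025, 8547 and 9071 CPM in HFD WT and 10641, 9974, 13081 and 13894 CPM in libraries labelled HFD Inpp4b-/-. HFD WT replicate 2 (10025 CPM) lay just above HFD Inpp4b-/- replicate 2 (9974 CPM), and the other libraries of each group were apart. The log2 fold change was 0.39 ± 0.14 (SE, n = 4 per genotype, edgeR adjusted p = 0.259).

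Complex IV, cytochrome c oxidase, has its catalytic core in mt-Co1, mt-Co2 and mt-Co3. mt-Co1, which holds the haem groups, measured 18451, 21879, 17463 and 18359 CPM in HFD WT and 22597, 21998, 24808 and 30314 CPM in libraries labelled HFD Inpp4b-/-. The groups did not overlap, but the highest HFD WT library (21879 CPM) and the lowest of the other group (21998 CPM) were close, and the log2 fold change was 0.39 ± 0.15 (SE, n = 4 per genotype, edgeR adjusted p = 0.279). mt-Co2, which accepts electrons from cytochrome c, measured 68.5, 74.2, 72.8 and 76.8 CPM and 87.5, 81.0, 98.6 and 94.3 CPM, respectively, without overlap. Its log2 fold change was 0.31 ± 0.09 (SE, n = 4 per genotype, edgeR adjusted p = 0.173), a fold change of 1.24.

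mt-Co3 ranged from 36.5 to 57.4 CPM in HFD WT and from 42.8 to 84.3 CPM in libraries labelled HFD Inpp4b-/-, with overlap. The log2 fold change was 0.36 ± 0.22 (SE, n = 4 per genotype, edgeR adjusted p = 0.498). It was 0.10 without HFD Inpp4b-/- replicate 4, the highest library. Both mt-Co2 and mt-Co3 are matched over nearly their whole length by the copies on chromosome 1. When the counts of these copies were added to those of the mitochondrial genes, an alternative chosen after the data were seen, the log2 fold changes were 0.29 and 0.42.

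Complex V, ATP synthase, takes 2 subunits of its membrane part from mitochondrial DNA, and their genes overlap. mt-Atp6 measured 36.8, 40.0, 42.1 and 60.03 CPM in HFD WT and 46.6, 128, 59.1 and 83.5 CPM in libraries labelled HFD Inpp4b-/-. HFD Inpp4b-/- replicate 2 was the highest library, replicates 1 and 3 of that group lay within the HFD WT range, and the log2 fold change was 0.83 ± 0.29 (SE, n = 4 per genotype, edgeR adjusted p = 0.254), the largest of the 16. It was 0.50 without HFD Inpp4b-/- replicate 2, and 0.55 with the counts of Gm10925 added.

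mt-Atp8 was counted only 17 to 63 times per library. Its levels were 0.774, 0.693, 0.573 and 1.27 CPM in HFD WT and 0.832, 1.18, 1.64 and 1.77 CPM in libraries labelled HFD Inpp4b-/-. HFD WT replicate 4 lay above replicates 1 and 2 of the other group, so the groups overlapped, and the log2 fold change was 0.71 ± 0.37 (SE, n = 4 per genotype, edgeR adjusted p = 0.431). Of its 204 bases, the 43 in capitals above also belong to mt-Atp6.

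**Figure D4:**
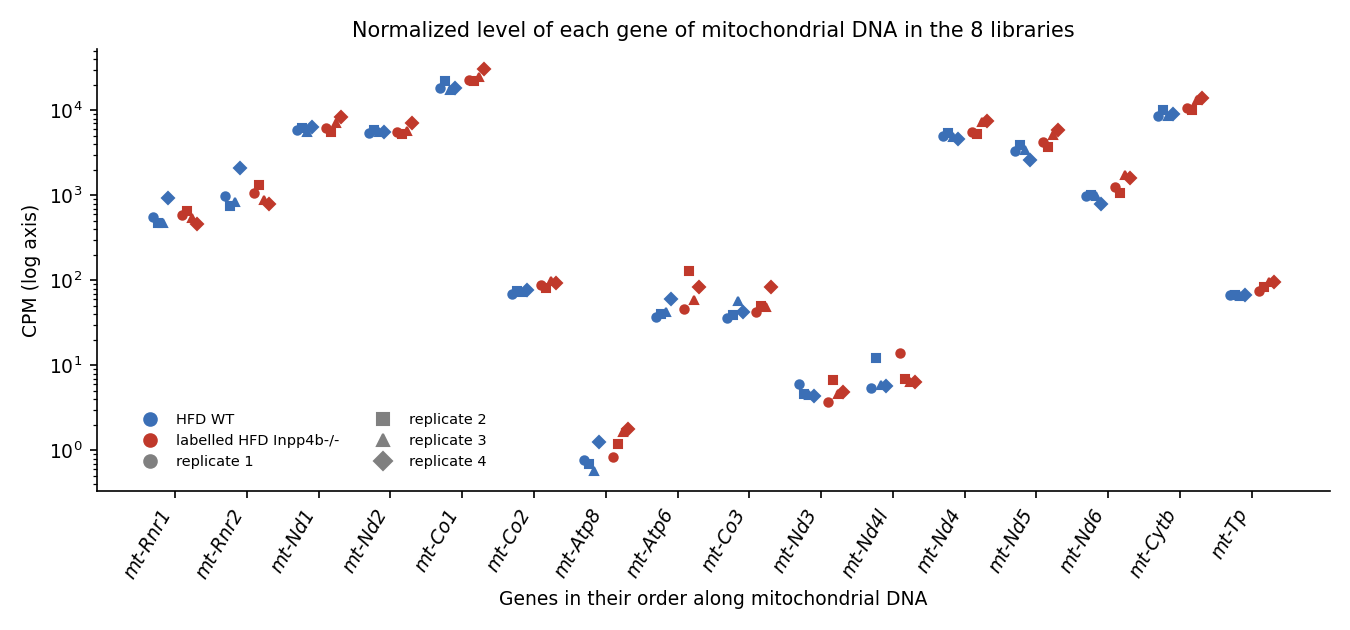
Level (CPM, log axis) of each of the 16 genes in each of the 8 libraries, in their order along mitochondrial DNA, with colour for genotype and shape for replicate number. mt-Co1 stands highest, the genes from mt-Co2 to mt-Nd4l stand at 128 CPM or less, and mt-Rnr1 and mt-Rnr2 are highest in HFD WT replicate 4.

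The rRNA genes, which encode the small (mt-Rnr1) and large (mt-Rnr2) ribosomal RNA of mitochondria, were high in the same libraries and overlapped between genotypes. mt-Rnr1 had 563, 477, 473 and 919 CPM in HFD WT and 589, 658, 541 and 465 CPM in libraries labelled HFD Inpp4b-/-, with a log2 fold change of -0.11 ± 0.21 (SE, n = 4 per genotype, edgeR adjusted p = 0.854). mt-Rnr2 had 977, 748, 827 and 2100.4 CPM and 1067, 1335, 891 and 782 CPM, respectively, with a log2 fold change of -0.19 ± 0.32 (SE, n = 4 per genotype, edgeR adjusted p = 0.830). Both were highest in HFD WT replicate 4 and next highest in HFD Inpp4b-/- replicate 2. Without HFD WT replicate 4 the sign turned, to 0.16 for mt-Rnr1 and 0.26 for mt-Rnr2.

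The labels state that rRNA was removed from the RNA, and whether that step took mitochondrial rRNA is not given in the sources used here. A cytosolic rRNA locus, Gm26917, had 165, 97.9, 199 and 328 CPM in HFD WT and 123, 73.7, 208 and 122 CPM in libraries labelled HFD Inpp4b-/-. It too was highest in HFD WT replicate 4, but lowest in HFD Inpp4b-/- replicate 2, and its part in the mitochondrial rRNA values was not tested. Of 12 short RNAs without a poly(A) tail that were looked up, 2 had a row, Rn7sk and Terc. Rn7sk had 0.220 to 3.54 CPM over all libraries, and Terc was below the filter. Whether RNA without such a tail was lost from these libraries was not tested. The ratio of mt-Rnr2 to mt-Rnr1 counts, which does not depend on the normalization, was 1.83 ± 0.311 (SD, n = 4) in HFD WT and 1.79 ± 0.172 in libraries labelled HFD Inpp4b-/- (two-sided exact permutation test over 70 arrangements, p = 0.857, the smallest possible being 0.0286).

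mt-Tp was the single tRNA gene with a row, and its levels were close within HFD WT. They were 66.7, 67.3, 65.0 and 67.5 CPM in HFD WT and 74.2, 84.3, 94.9 and 94.8 CPM in libraries labelled HFD Inpp4b-/-, from 1758 to 3376 counts. All of the latter were above all of the former, with a log2 fold change of 0.39 ± 0.09 (SE, n = 4 per genotype, edgeR adjusted p = 0.130), the lowest adjusted p of the 16 genes. Without HFD Inpp4b-/- replicate 1, mt-Tp was called, with a log2 fold change of 0.46 and an edgeR adjusted p of 0.0923. A mature tRNA of 67 bases is shorter than a read of these libraries, so these counts can include longer RNAs that span the gene. How many did was not tested. mt-Tp lies on the minus strand, as mt-Nd6 does. Without the strand setting of the counting, its reads cannot be told apart from RNA of the plus strand that spans the gene.

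Within the protein genes, mt-Nd1 and mt-Nd2 took smaller shares in the libraries labelled HFD Inpp4b-/-. Their own fitted log2 fold changes were above 0 (0.18 and 0.10), so a smaller share here is not a lower level. mt-Co1, mt-Cytb and mt-Nd1 together held 69.4% of the protein-gene counts in HFD WT and 69.9% in libraries labelled HFD Inpp4b-/-. mt-Nd1 took 12.2% ± 0.817 of them in HFD WT and 10.9% ± 0.336 in libraries labelled HFD Inpp4b-/- (SD, n = 4 each), without overlap. mt-Nd2 took 11.4% ± 0.558 and 9.58% ± 0.511, also without overlap. The shares of the other 11 genes overlapped, and no test was made of these shares.

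mt-Nd1 and mt-Nd2 lie closest to the rRNA genes on their strand, and mt-Nd5 lies farther along. Log2 fold changes did not rise steadily along the strand. mt-Cytb lies beyond mt-Nd5 (0.53), but its value (0.39) was near that of mt-Co1 (0.39), which lies before mt-Nd5. The ratio of mt-Nd5 to mt-Nd1 counts, chosen after the values were seen and therefore not tested, was 0.563, 0.624, 0.610 and 0.414 in HFD WT and 0.685, 0.670, 0.732 and 0.701 in libraries labelled HFD Inpp4b-/-. HFD WT replicate 4, the library with the highest rRNA level, had the lowest ratio. mt-Nd6 had 1.97% ± 0.234 of the counts of the 12 other protein genes in HFD WT and 2.31% ± 0.314 in libraries labelled HFD Inpp4b-/- (SD, n = 4 each), with overlap.

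Nuclear genes that act on mitochondrial DNA and RNA were examined in 3 lists of 78 gene symbols, of which 76 were tested. None was called by edgeR, where 1.17% of all tested genes were, and DESeq2 called 1, Cdk5rap1, where it called 4.31% of all tested genes. An unadjusted edgeR p under 0.05 was found for 6 of 76, where 13.9% of all tested genes had one. Of 20 genes of transcription and replication, 12 had a log2 fold change above 0, with a median of 0.09. Of 36 genes of RNA processing, modification and turnover, 13 did, with a median of -0.08, and of 20 genes of tRNA charging, 11 did, with a median of 0.03. Slirp, a partner of Lrpprc, was below the filter, and Prorp had no row under that symbol.

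Among the genes that make mitochondrial RNA, Polrmt, the RNA polymerase, had 28.2 ± 2.14 CPM in HFD WT and 28.0 ± 1.74 CPM in libraries labelled HFD Inpp4b-/- (SD, n = 4), with a log2 fold change of -0.01 (edgeR adjusted p = 0.970). Its sign turned under upper quartile normalization (0.015). Tfam, which packages mitochondrial DNA and starts transcription, had 45.6 ± 5.03 and 53.4 ± 4.22 CPM, with overlap and a log2 fold change of 0.23 (edgeR adjusted p = 0.355). Twnk, the helicase of replication, had 39.9, 34.9, 42.9 and 41.5 CPM in HFD WT and 27.7, 32.5, 34.2 and 33.1 CPM in libraries labelled HFD Inpp4b-/-. These did not overlap, with a log2 fold change of -0.32 (edgeR adjusted p = 0.207).

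Of the genes that handle the RNA afterwards, Lrpprc, which stabilizes mitochondrial mRNAs, had a log2 fold change of -0.16 (edgeR adjusted p = 0.415). Elac2, which cuts the 3′ ends of tRNAs, had one of -0.11 (edgeR adjusted p = 0.633). Cdk5rap1, which modifies mitochondrial tRNAs, had 4.65, 6.90, 5.46 and 8.72 CPM in HFD WT and 17.1, 26.2, 26.9 and 7.39 CPM in libraries labelled HFD Inpp4b-/-. Replicates 1 to 3 of the latter were above all HFD WT libraries while replicate 4 lay among them, and the log2 fold change was 1.59 (edgeR adjusted p = 0.113). Without that replicate it was called, at 1.86 (edgeR adjusted p = 0.0245).

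The nuclear subunits of the same complexes were compared side by side. Nuclear genes were assigned to a complex by the start of their symbol alone. The set of complex I therefore includes Ndufa4 and Ndufa4l2, and that of complex IV includes Cox7a2l. Of 79 tested nuclear subunit genes, 71 had a log2 fold change above 0, with a median of 0.14, where 50.4% of all tested genes were above 0. At an unadjusted edgeR p under 0.05, 19 of 79 were higher and 1 was lower, where 6.8% and 7.14% of all tested genes were. Normalized levels did not overlap in 14 of 79 that were higher and 1 that was lower, where 4.63% and 4.09% of all tested genes were of these kinds. By complex, the medians of mitochondrial and nuclear genes were 0.20 (7 genes) and 0.16 (37 genes) for complex I, 0.39 (1 gene) and 0.12 (9 genes) for complex III, 0.36 (3 genes) and 0.20 (13 genes) for complex IV, and 0.77 (2 genes) and 0.12 (16 genes) for complex V. Complex II, which has no gene in mitochondrial DNA, had a median of 0.07 over 4 genes. The mitochondrial medians of complexes I and IV are the values of mt-Nd4l and mt-Co3. That of complex V rests on mt-Atp6 and mt-Atp8. The values of mt-Nd4l, mt-Co3 and mt-Atp6 are uncertain because of their nuclear copies, and mt-Atp8 had few counts. The difference between the sets was not tested.

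Of the nuclear subunit genes, 2 of 79 were called by edgeR, both of complex I, where 1.17% of all tested genes were called. Ndufa13 had 103, 101, 102 and 103 CPM in HFD WT and 127, 137, 152 and 162 CPM in libraries labelled HFD Inpp4b-/-, and rose with a log2 fold change of 0.50 ± 0.09 (SE, edgeR adjusted p = 0.0503). Its call was lost without HFD WT replicate 1 (adjusted p = 0.124) or 3 (0.113), or without HFD Inpp4b-/- replicate 2 (0.125), 3 (0.15) or 4 (0.101). Ndufs5 had 48.5, 78.2, 50.6 and 76.3 CPM and 21.9, 18.6, 28.8 and 20.1 CPM, respectively, and fell with a log2 fold change of -1.51 ± 0.20 (SE, edgeR adjusted p = 0.0117). It remained called without any 1 library.

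**Figure D5:**
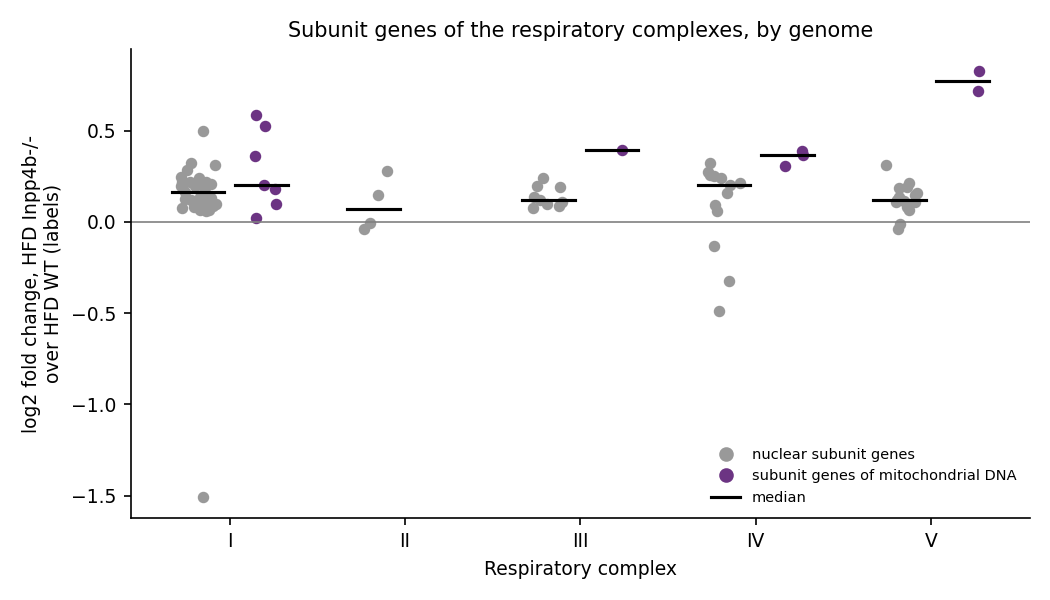
edgeR log2 fold change, libraries labelled HFD Inpp4b-/- over HFD WT, of nuclear (grey) and mitochondrial (purple) subunit genes by complex, each point a gene and each line a median. Medians of the mitochondrial genes lie above those of the nuclear genes in complexes I, III, IV and V, and Ndufs5 lies lowest at -1.51. The mitochondrial medians of complexes I, IV and V are set by mt-Nd4l, mt-Co3, mt-Atp6 and mt-Atp8, whose counts are uncertain or few.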

How the data were processed

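RNA of 8 livers (4 HFD WT, 4 HFD Inpp4b-/-) was sequenced, 1 library per mouse. The authors mapped paired-end reads with HISAT2 (build GRCm38), obtained gene counts with HTSeq and deposited these raw counts. The table has 18095 genes, all of them detected in every library of at least 1 genotype. The annotation release, the strand setting and the treatment of reads with several alignments are not given in the sources used here. A second deposited table holds a normalized signal, which equals the counts divided by 1 size factor per library. It was checked against the counts and not used further. Columns of comparisons made by the authors were not used.

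Symbols and coordinates came from GENCODE M21, which matched all 18095 identifiers. The count model was the quasi-likelihood test of edgeR 4.0.16 in R 4.3.3 (TMM factors, filterByExpr, trended dispersion, no covariate), over the 14866 genes that passed the filter, after a test on simulated data. A call needed a fold change over 1.3 and a p under 0.10 after Benjamini-Hochberg adjustment, the thresholds of the study. CPM used the TMM-scaled library totals. The biological coefficient of variation was 0.251. Levels per length were CPM divided by the length of the annotated gene. Mitochondrial transcripts were aligned to all other annotated transcripts with BLAST 2.17.0 (at least 85% identity over 100 bases, E-value up to 1e-20). Wilson intervals and exact permutation tests used scipy 1.17.1. Intervals cover counting error only.

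Alternatives were DESeq2 1.42.0, other normalizations, filters and thresholds, the replicate number as a block, and each library left out in turn. Shares were also computed with other denominators. Leaving out both libraries high in mitochondrial rRNA and adding the counts of nuclear copies were chosen after the data were seen. Named with values in every library were both rRNA genes, mt-Nd6, the 3 protein genes with the highest and the 2 with the lowest level per length, genes with an unadjusted p under 0.05, and the 2 highest and 2 lowest log2 fold changes among proteins. Of the nuclear lists, called genes and Polrmt, Tfam, Twnk, Lrpprc and Elac2 were named. Cdk5rap1, Slirp, Ndufa13 and Ndufs5 were named after their values were seen. The genes and lists were chosen with earlier results of these data known.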

Additional observations from a re-analysis of the deposited data

Results flagged for a closer look

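Of 58 groups of 4 libraries examined for 1 library far from the other 3, 8 held such a library by Dixon's criterion, where chance gives about 1 in 20 (2.9 groups). The groups reuse the same libraries, and mt-Rnr2 is part of the rRNA share, so they are not independent. Setting 8 against 2.9 is therefore no test.

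HFD WT replicate 4 stood apart most often. It had 2100 CPM of mt-Rnr2, the next library of its group having 977 CPM, and the rRNA genes took 0.304% of it, the next being 0.148%. mt-Nd6 was low in it, at 782 CPM with 989 CPM next, as was Elac2, at 25.9 CPM with 30.5 CPM next.

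The other such values were of genes with few counts or of a nuclear gene. mt-Nd4l was high in HFD WT replicate 2, at 12.3 CPM with 5.90 CPM next, and in HFD Inpp4b-/- replicate 1, at 14.1 CPM with 7.02 CPM next. mt-Nd3 was high in HFD WT replicate 1, at 6.08 CPM with 4.57 CPM next. Polrmt was high in HFD Inpp4b-/- replicate 4, at 30.6 CPM with 27.3 CPM next.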

How the results depend on the processing

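The direction of mt-Co1, mt-Co2, mt-Co3, mt-Atp6, mt-Atp8, mt-Cytb, mt-Nd1, mt-Nd4, mt-Nd5, mt-Nd6 and mt-Tp was the same in all 18 alternative fits. The number of mitochondrial genes called was 0, with 5 under DESeq2 and 0 to 1 when each library was left out (1 without HFD Inpp4b-/- replicate 1). The 3 nuclear lists had 0 called, 1 under DESeq2 and 0 to 1 when each library was left out. Of the nuclear subunits, 2 were called, 1 without both libraries high in mitochondrial rRNA (an alternative chosen after seeing the data), 1 at an adjusted p under 0.05, and 1 to 2 when each library was left out. Over all genes, 174 were called by edgeR, 640 by DESeq2, 71 at an adjusted p under 0.05 and 53 to 345 when each library was left out.

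Same-numbered libraries of the 2 genotypes were not more alike than others. Their deviations correlated at -0.19 to -0.05, below the -0.03 to 0.18 of differently numbered libraries. The reason for this difference was not tested. With the replicate block, 0 mitochondrial genes, 0 genes of the nuclear lists, 0 nuclear subunits and 26 of all genes were called.

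Values of the rRNA genes rested on HFD WT replicate 4. Their median log2 fold change was -0.15, from -0.29 to 0.21 when each library was left out, and 0.072 without both libraries high in mitochondrial rRNA. The difference in their share was -0.0176 percentage points, -0.0354 to 0.0246 when each library was left out and 0.00753 without both. The log2 difference of the ratio of mt-Rnr2 to mt-Rnr1 was -0.02, -0.094 to 0.087 when each library was left out and 0.026 without both. Without both, the log2 fold change was 0.058 for mt-Rnr1, 0.086 for mt-Rnr2 and -0.23 for mt-Nd3. When each library was left out, log2 fold changes ranged from -0.22 to 0.16 for mt-Rnr1, -0.36 to 0.26 for mt-Rnr2, -0.0017 to 0.15 for mt-Nd2, -0.16 to 0.14 for mt-Nd3, -0.16 to 0.57 for mt-Nd4l and -0.060 to 0.031 for Polrmt, which was 0.015 under upper quartile normalization. With the counts of nuclear copies added, also chosen after seeing the data, log2 fold changes were 0.58 for mt-Nd3 and 0.37 for mt-Nd4l. mt-Nd1 was 0.062 without HFD Inpp4b-/- replicate 4. The cause of these changes was not tested. The largest shift of the median of all genes under another normalization was 0.0254. mt-Atp8 had the fewest counts, 17 to 63 per library.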
